A study of Gallus gallus with 8 samples.

Results

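Fibroblast growth factors (FGFs) are secreted proteins that bind receptor tyrosine kinases (FGFR) at the cell surface together with heparan sulfate, and the receptors pass the signal through RAS and the kinase ERK to the nucleus. There ERK raises transcription of ETS factors such as ETV4 and ETV5 and of its own inhibitors, among them the Sprouty proteins, which damp the signal again. In the chick eye FGFs are known for setting apart neural retina from pigment epithelium and for starting retinal differentiation, and in epithelia such as the cornea for signalling from mesenchyme to epithelium. The genes described here are 10 named members of this pathway, which are the ligands FGF19, FGF1, FGF2, FGF8 and FGF10, the receptors FGFR1, FGFR2 and FGFR3, and the feedback inhibitors SPRY1 and SPRY2. A row of the deposited table carried the symbol of 9 of them, out of 16700 genes, of which 14839 had at least 1 read. FGF2 had no row under that symbol, and the row BFGF, which RefSeq lists as its synonym, is given beside the 9 but is not counted with them. All 9 passed the filter on low counts, so none was lost from the tests.

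RNA was taken from whole retina of untreated chicken embryos (Cobb/Hubbard F1 hybrid) incubated for 8, 16 or 18 days (E8, E16, E18) and from whole cornea of E18 embryos, with 2 libraries in each of the 4 groups, described as biological duplicates, so p-values measure the spread between these libraries. Polyadenylated RNA of unsorted tissue was sequenced, so fewer cells of a type and less RNA per cell cannot be told apart. A library held 15662779 to 45670254 reads on genes, and values are normalized counts, which are reads divided by 1 size factor per library (0.542 to 1.71). Gene length was not corrected for, so levels are compared between groups for the same gene and not between genes. Values of up to 3 reads in a library, worth 1.76 to 5.53 normalized counts, were taken as no more than the detection limit, which covers counting error only. The labelled tissues carried their markers. The retinal groups had means of 4712 to 11223 normalized counts of SIX6, a transcription factor of the developing retina, against 5.53 and 8.60 in the cornea libraries. The cornea had a mean of 267609 normalized counts of KRT12, the keratin of corneal epithelium, against 3.02 to 12.7 in the retinal groups.

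Groups were compared with limma on log2(normalized count + 1), and a gene was called at an adjusted p under 0.05 over the 13194 genes tested. Between E8 and E16 retina, 7 of the 9 members were called, 4 higher and 3 lower at E16, where 64.4% of all tested genes were called (34.1% higher, 30.3% lower). Between E16 and E18 retina, 1 member (FGF8) was called, and was lower at E18, against 18.6% of all genes (10.7% higher, 7.87% lower). Between E8 and E18 retina, 7 were called, 4 higher and 3 lower, against 66.4% of all genes (35% higher, 31.4% lower). Between E18 cornea and E18 retina all 9 were called, 6 higher and 3 lower in cornea, against 71.4% of all genes (36.9% higher, 34.5% lower). With 9 genes, nothing is read from these counts beyond those shares, and the description that follows rests on single genes. The median log2 difference of the 9 was -0.16 between E18 and E16 retina (0.02 over all tested genes) and 1.04 between E18 cornea and E18 retina (0.06 over all tested genes). The E8 libraries serve in both comparisons with E8, so those are not independent of each other.

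**Figure D1:**
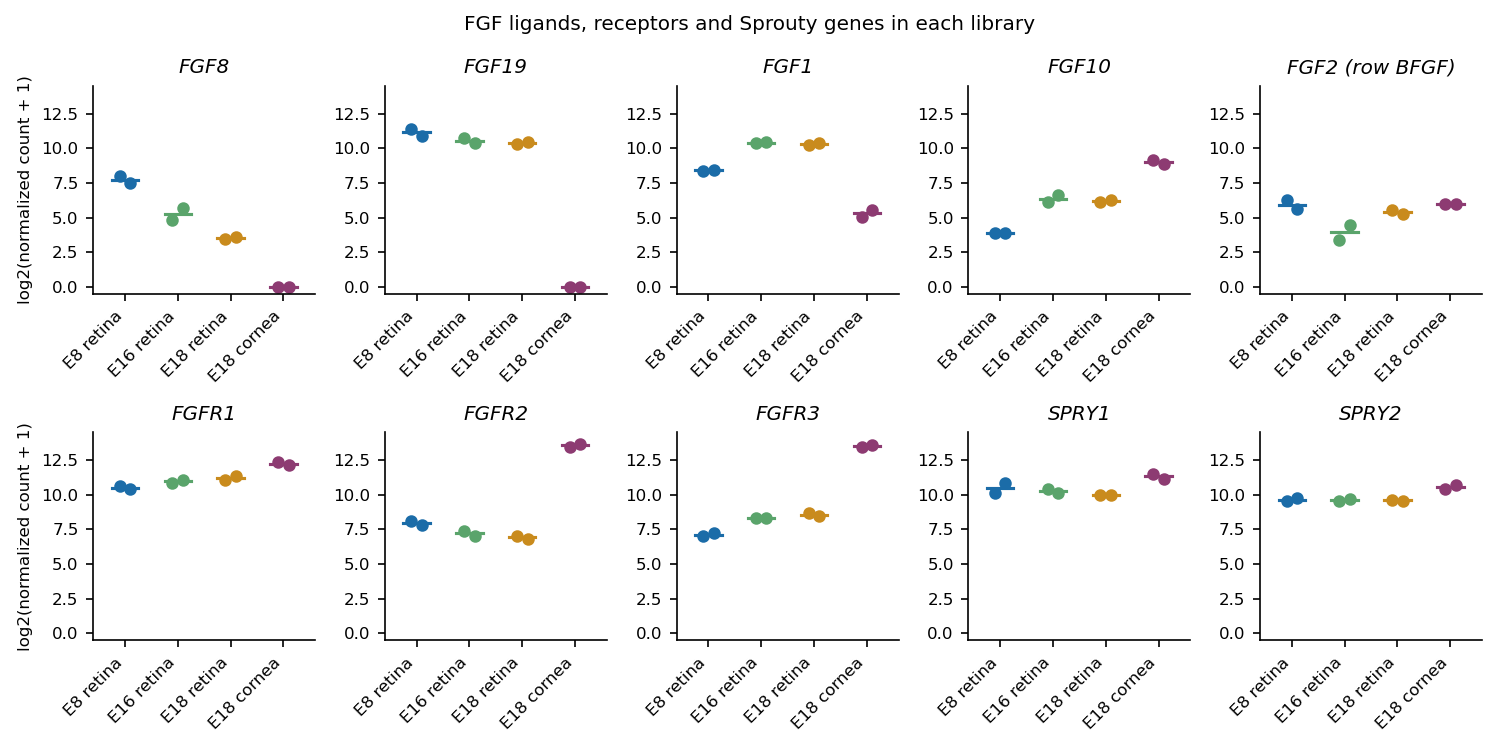
Each panel gives 1 gene, with log2(normalized count + 1) on the vertical axis, each point 1 library (2 per group) and each bar the mean of its group. FGF8 steps down from E8 to E18 and FGF19 and FGF8 lie at 0 in both cornea libraries, while FGFR2 and FGFR3 stand in cornea far above every retinal library.

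Among the member ligands, FGF8 changed most in the retina between E8 and E18. FGF8, a morphogen of the early optic cup and of several brain organizers, had 256 and 175 normalized counts in the E8 libraries, 27.3 and 51.5 at E16, and 10.02 and 11.4 at E18. Each stage lay below the one before it without overlap. From E8 to E16 FGF8 fell by 2.47 on the log2 scale, or 5.52-fold (SE 0.41, limma adjusted p = 0.000828), and from E8 to E18 it fell by 4.19 on the log2 scale, or 18.2-fold (SE 0.41, limma adjusted p = 3.16e-05). The step from E16 to E18 was 3.30-fold (SE 0.41 on the log2 scale, limma adjusted p = 0.0247) and rested on 26 and 63 reads against 8 and 15. That call was lost when any of the 4 libraries was left out, with adjusted p of 0.0634 and 0.155 without E16 replicate 1 or 2 and 0.18 and 0.0902 without E18 replicate 1 or 2. In cornea neither library had a read of FGF8, and E18 retina was at least 1.93-fold higher relative to 3 reads in the shallower cornea library.

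FGF19, the chick ortholog of mouse Fgf15 and a ligand of the endocrine subfamily, stayed present through the whole period. Its libraries held 2740 and 1944 normalized counts at E8, 1731 and 1312 at E16, and 1285.5 and 1407 at E18. Both E8 libraries lay above all later retinal libraries, while E16 and E18 overlapped. The fall from E8 to E18 was 1.72-fold (SE 0.24 on the log2 scale, limma adjusted p = 0.0173), much shallower than that of FGF8, and the 95% intervals of the 2 log2 changes (-1.32 to -0.24 for FGF19 and -5.13 to -3.25 for FGF8) did not overlap. The call depended on single libraries, with adjusted p of 0.106 without E8 replicate 1, 0.107 without E18 replicate 1 and 0.0644 without E18 replicate 2. From E8 to E16 the change was 1.53-fold (limma adjusted p = 0.0471), which was no longer called without E8 replicate 1 (0.247), E16 replicate 1 (0.0568) or E16 replicate 2 (0.283). That call was also lost with a pseudocount of 0.5 (limma adjusted p = 0.0537) and with no filter on low counts (0.0514). The difference from cornea was of another order. Neither cornea library had a read of FGF19, so E18 retina was at least 243-fold higher relative to 3 reads in the shallower cornea library.

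FGF1, or acidic FGF, which binds all FGF receptors and lacks a classical signal peptide, ran the other way in time. It had 326 and 349 normalized counts at E8, 1320 and 1382 at E16, and 1217 and 1340 at E18. Both later stages lay above E8 without overlap, and E16 and E18 overlapped each other. The rise from E8 to E16 was 3.99-fold (SE 0.21 on the log2 scale, limma adjusted p = 5.37e-05), and from E16 to E18 the log2 difference was -0.08 with a 95% interval of -0.56 to 0.40. In cornea FGF1 had only 31.4 and 46.7 normalized counts (17 and 38 reads), 32.5-fold lower than in E18 retina (SE 0.21 on the log2 scale, limma adjusted p = 1.48e-07). FGF1 and FGF19 thus shared their side of the tissue contrast while differing in direction over time.

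FGF10, a ligand that mesenchyme sends to epithelia through the FGFR2b isoform, was the member ligand that was higher in cornea. It had 559 and 456 normalized counts there, and in retina 13.5 and 13.7 at E8, 68.3 and 97.2 at E16, and 67.7 and 77.2 at E18. The cornea libraries lay above all retinal ones, and the E8 libraries below all others. Cornea was 6.90-fold higher than E18 retina (SE 0.28 on the log2 scale, limma adjusted p = 2.54e-05), and within the retina FGF10 rose 5.65-fold from E8 to E16 (SE 0.28, limma adjusted p = 8.39e-05). The E8 value rested on 23 and 14 reads. In the later GRCg7b assembly FGF10 lies on chromosome Z, whose 547 tested genes had a median log2 difference of -0.58 between E16 and E8 retina (0.04 over 10548 genes elsewhere), so that FGF10 moved against the median of its chromosome.

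The BFGF row, for basic FGF (FGF2), which can turn chick pigment epithelium into neural retina, held few reads. It had 75.6 and 47.04 normalized counts at E8, 9.46 and 21.2 at E16, 45.1 and 37.1 at E18, and 62.7 and 62.6 in cornea. E16 was thus the low point, with 9 and 26 reads, and E8 and cornea overlapped. From E8 to E16 the row fell 3.98-fold (SE 0.43 on the log2 scale, limma adjusted p = 0.00315). Between E16 and E18 the log2 difference was 1.46 (limma adjusted p = 0.0464), a call that was lost with edgeR (0.0531) and DESeq2 (0.0683) and without E16 replicate 1 (0.251), E16 replicate 2 (0.056), E18 replicate 1 (0.267) or E18 replicate 2 (0.125). It was lost with the replicate block as well (0.0645). FGF2 overlaps NUDT6 in GRCg7b, and since the libraries were stranded but the use of strand in counting is not given in the sources used here, reads of these genes may not be fully separated. The NUDT6 row had 397 and 376 normalized counts at E8, 430 and 364 at E16, 643 and 660 at E18, and 926 and 1133 in cornea. Unlike BFGF it was not called between E8 and E16, but like BFGF it was called higher at E18 than at E16 (1.65-fold, limma adjusted p = 0.0216). The part of shared reads in the BFGF values was not tested.

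Other secreted FGFs came from a list of 12, of which 11 had reads and 7 passed the filter. Between E8 and E18 retina 4 of the 7 were called higher and 2 lower, and between E16 and E18 none was called (limma). Over all tested genes the shares were 35% higher and 31.4% lower between E8 and E18, and 18.6% called between E16 and E18. FGF3, which in GRCg7b stands in 1 cluster with FGF4 and FGF19, fell beside FGF8. Its libraries held 839 and 385 normalized counts at E8, 35.7 and 55.6 at E16, 48.9 and 51.5 at E18, and none in cornea, where E18 retina was at least 9.07-fold higher. From E8 to E18 FGF3 fell 11.1-fold (SE 0.43 on the log2 scale, limma adjusted p = 0.000115). FGF4 had 2 reads in each E8 library and none elsewhere.

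FGF7, FGF16 and FGF5 had almost no reads in E8 retina and appeared by E16. FGF7, or keratinocyte growth factor, which like FGF10 acts on epithelia through FGFR2b, had 3 and 0 reads at E8 against 62 and 83 at E16. Their ratio was 60.6 after scaling for depth, with an exact 95% counting interval of 20.3 to 297. In cornea FGF7 had 1933 and 2426 normalized counts, 33.4-fold above E18 retina (SE 0.45 on the log2 scale, limma adjusted p = 9.88e-06). FGF16 had 2 and 1 reads at E8 and 56 and 65 at E16, a ratio of 50.6 (16.9 to 249). FGF5 had 1 and 2 reads at E8 and 35 and 40 at E16, a ratio of 31.3 (10.3 to 155), but unlike FGF7 and FGF16 it had 0 and 1 reads in cornea.

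Markers of other tissues were read beside these small retinal values, and their part in the rise was not tested. The 7 genes with reads in a corneal stroma list of 8 summed to 199 to 210 normalized counts in the E8 retina libraries, 842 to 960 at E16 and 826 to 880 at E18, against 968806 to 1011590 in cornea. Of these 7, 3 were called higher and 2 lower at E16 than at E8, against 34.1% and 30.3% of all tested genes. OGN had no more than 3 reads in each E16 and E18 library. KERA alone, with group means of 9.20, 649 and 618 normalized counts at E8, E16 and E18, made up most of the later sums. Epithelial markers of the cornea, 5 with reads, summed to 33.3 to 41.6 normalized counts at E8, 92.3 to 107 at E16 and 83.3 to 83.9 at E18, where KRT12, KRT15 and LYPD2 had at most 3 reads. The 7 pigment epithelium markers with reads summed to 353 to 374 normalized counts at E8 and 333 to 355 at E16. At E18 they summed to 634 to 650, and TTR had no more than 3 reads in each E8 library. MITF, with group means of 308, 276 and 507 at E8, E16 and E18, made up most of these sums. Summed values of 3 skeletal muscle markers went from 26.5 to 40.4 at E8 to 137 to 142 at E16. MYOG had no more than 3 reads in each retinal library. ACTA1 made up most of the E16 sum (means of 21.2 at E8 and 134 at E16), while TNNT3 went the other way (12.2 and 4.79). Of the 3, 1 was called higher at E16 than at E8 and none lower, against 34.1% and 30.3% of all tested genes.

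The receptors split in the retina. FGFR1, the most widely used FGF receptor, had 1556 and 1400 normalized counts at E8, 1864 and 2160 at E16, 2178 and 2567 at E18, and 5250 and 4476 in cornea. None of these groups overlapped another. FGFR1 rose 1.6-fold from E8 to E18 (SE 0.14 on the log2 scale, limma adjusted p = 0.00255). The smaller step from E8 to E16, 1.36-fold (limma adjusted p = 0.0222), was no longer called without E8 replicate 2 (0.0984) or E16 replicate 2 (0.158), and E16 and E18 were not called apart (log2 difference 0.24, 95% interval -0.09 to 0.56).

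FGFR3 rose more. It had 127 and 151 normalized counts at E8, 328 and 322 at E16, and 403 and 345 at E18, and the later stages lay above E8 without overlap. The change from E8 to E18 was 2.69-fold (SE 0.16 on the log2 scale, limma adjusted p = 5.76e-05), and its 95% interval on the log2 scale, 1.07 to 1.78, lay just above that of FGFR1 (0.36 to 1.00). FGFR2, by contrast, had 274 and 223 normalized counts at E8, 170 and 131 at E16, and 130 and 114 at E18, each stage below the one before. It fell 2.02-fold from E8 to E18 (SE 0.20 on the log2 scale, limma adjusted p = 0.00163). From E8 to E16 it fell 1.65-fold (limma adjusted p = 0.0103), which was no longer called without E8 replicate 1 (0.0524) or E16 replicate 2 (0.0818).

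In cornea these receptors stood far apart in the size of their excess. Markers of other tissues differed as well, and their part in the cornea differences was not tested. The 3 skeletal muscle markers with reads summed to 4011 to 5193 normalized counts in cornea against 109 to 118 in E18 retina. All 3 were called higher (limma), as were 36.9% of all tested genes. Of 5 vascular endothelium markers 4 were called higher in cornea, such as CDH5 with a mean of 1685 against 6.64, and KDR was lower (408 against 7005). FGFR2 had 11493 and 12918 normalized counts in the cornea libraries, 99.3-fold above E18 retina (log2 difference 6.63, 95% interval 6.19 to 7.08, limma adjusted p = 3.41e-08). For FGFR3 the cornea values were 11325 and 12217, 31.4-fold above E18 retina (log2 difference 4.97, 95% interval 4.62 to 5.33, limma adjusted p = 4.4e-08). FGFR1 was only 2.05-fold higher in cornea (log2 difference 1.04, 95% interval 0.71 to 1.36, limma adjusted p = 0.000166). The 3 intervals did not overlap, so the order FGFR2, FGFR3, FGFR1 in tissue difference exceeded the spread between libraries. Against E8 retina the excess in cornea was 49.1-fold for FGFR2 and 84.5-fold for FGFR3, with 95% intervals of 5.17 to 6.06 and 6.05 to 6.76 on the log2 scale that overlapped slightly. FGFR4, the remaining signalling receptor, was 1.95-fold higher in cornea (938 ± 64.4 against 481 ± 51.7 normalized counts, SD, n = 2, limma), and it was not called between retinal stages. FGFRL1, a receptor without a kinase domain, was lower in cornea, with 118 and 66.3 normalized counts against 670 and 648 in E18 retina.

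**Figure D2:**
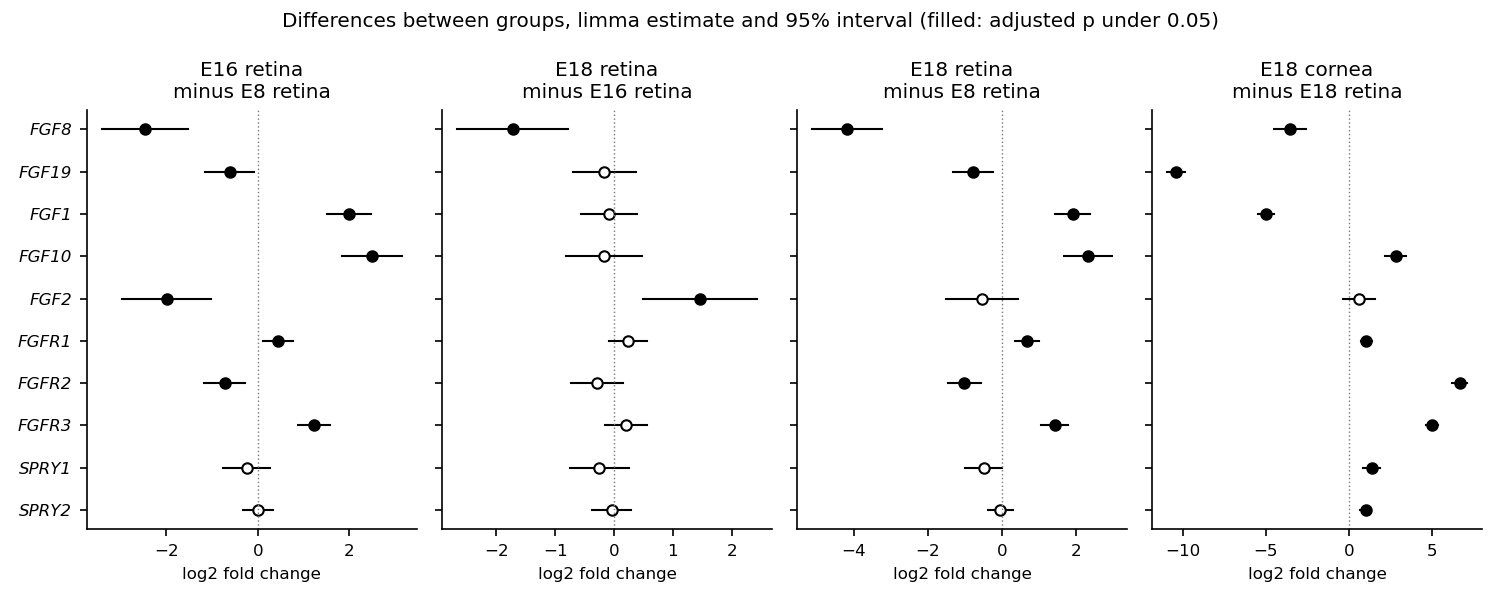
Horizontal axes give log2 fold changes of the first group minus the second, points the limma estimates, bars their 95% intervals and filled points the genes with an adjusted p under 0.05 in that comparison. In the retina FGFR2 fell while FGFR1 and FGFR3 rose, and between cornea and E18 retina the receptors and Sprouty genes lie to the right and FGF19, FGF8 and FGF1 to the left.

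The feedback genes SPRY1 and SPRY2, whose products restrain RAS and ERK signalling below the receptors, were the members that no retinal comparison called. SPRY2 had 737 and 859 normalized counts at E8, 766 and 827 at E16, and 782 and 765 at E18. The retinal groups thus overlapped, and the log2 difference between E18 and E8 was -0.04 with a 95% interval of -0.38 to 0.29. SPRY1 had 1140 and 1825 normalized counts at E8, 1341 and 1103 at E16, and 1026 and 1022 at E18. E18 lay below E8, but the E8 libraries differed 1.6-fold from each other, more than counting error (95% counting interval of replicate 1 over replicate 2, 0.586 to 0.666). Its log2 difference between E18 and E8 was -0.49 (95% interval -1.0 to 0.01, limma adjusted p = 0.0788), which was called by edgeR (adjusted p = 0.0449), by DESeq2 (0.0415) and without E8 replicate 1 (0.00752), within a range of 0.00752 to 0.494 over the alternatives. Without E8 replicate 1, SPRY1 was also called lower at E16 than at E8 (0.0319).

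Both Sprouty genes were higher in cornea. SPRY1 had 2926 and 2311 normalized counts there, 2.54-fold above E18 retina (SE 0.22 on the log2 scale, limma adjusted p = 0.00057), and SPRY2 had 1402 and 1684, 1.99-fold above (SE 0.15, limma adjusted p = 0.000284). All cornea values exceeded all retinal values for each gene. In GRCg7b the protein-coding gene SPATA5 lies between SPRY1 and FGF2, and NUDT6, also protein-coding, overlaps FGF2.

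The other feedback inhibitors moved in opposite directions. From a list of 10, 7 were tested. Between E8 and E18 retina 2 were called higher and 2 lower (limma), against 35% and 31.4% of all tested genes. DUSP4, a phosphatase that inactivates ERK in the nucleus, had 384 and 458 normalized counts at E8, 132 and 105 at E16, and 45.1 and 66.6 at E18, a fall of 7.52-fold from E8 to E18 (SE 0.30 on the log2 scale, limma adjusted p = 4.26e-05). DUSP5, a second nuclear phosphatase for ERK, had 17.6 and 13.7 at E8 and 1776 and 1579 at E16, a rise of 101-fold (SE 0.21, limma adjusted p = 7.55e-08). It remained at 1257 and 1434 at E18 and was 4.17-fold lower in cornea. SPRED2, a RAS inhibitor related to Sprouty, fell from 1594 ± 4.34 at E8 to 614 ± 41.8 at E16 and was at 1131 ± 107 at E18 (SD, n = 2). The limma call between E16 and E18 was lost without E16 replicate 1 (adjusted p = 0.0577), E16 replicate 2 (0.0658) or E18 replicate 1 (0.0915). In cornea 4 of the 7 were called higher than in E18 retina and 2 lower, against 36.9% and 34.5% of all tested genes. SPRED1 was 2.10-fold higher in cornea. SPRY4 was listed at 0 in all libraries and was not interpreted.

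Transcription factors induced by ERK split as well. Of 7 in the list 6 were tested. Between E8 and E18 retina 3 were called lower and 2 higher (limma), against 31.4% and 35% of all tested genes. ETV4, of the PEA3 group of ETS factors that report FGF signalling in many embryonic tissues, had 1019 and 902 normalized counts at E8, 178 and 163 at E16, and 66.4 and 58.3 at E18. Like FGF8 it stepped down at each stage, 5.60-fold from E8 to E16 (SE 0.20 on the log2 scale, limma adjusted p = 1.02e-05) and 15.2-fold from E8 to E18. Its call between E16 and E18 (limma adjusted p = 0.00475) was lost without E16 replicate 1 (0.0533) or E18 replicate 1 (0.0508). ETV5 of the same group had 2013 and 1400 at E8 and 650 and 732 at E18. In the opposite direction, the immediate early genes EGR1 and FOS rose. EGR1 went from 17.0 and 40.2 normalized counts at E8 to 3561 and 3677 at E18, or 133-fold (SE 0.34 on the log2 scale, limma adjusted p = 4.99e-07), and FOS from 41.6 and 36.3 to 913 and 1610. EGR1 (2.10-fold) and FOS (6.56-fold) were lower in cornea than in E18 retina, and ETV4 (4.13-fold), MYC (4.62-fold), ETV1 (row ER81, 2.91-fold) and ETV5 (1.94-fold) were higher. Per the study's methods, retinas were peeled from eyecups after a warm incubation without calcium or magnesium, while corneas were flash frozen and ground before lysis. The part of this unlike handling in the tissue differences was not tested.

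**Figure D3:**
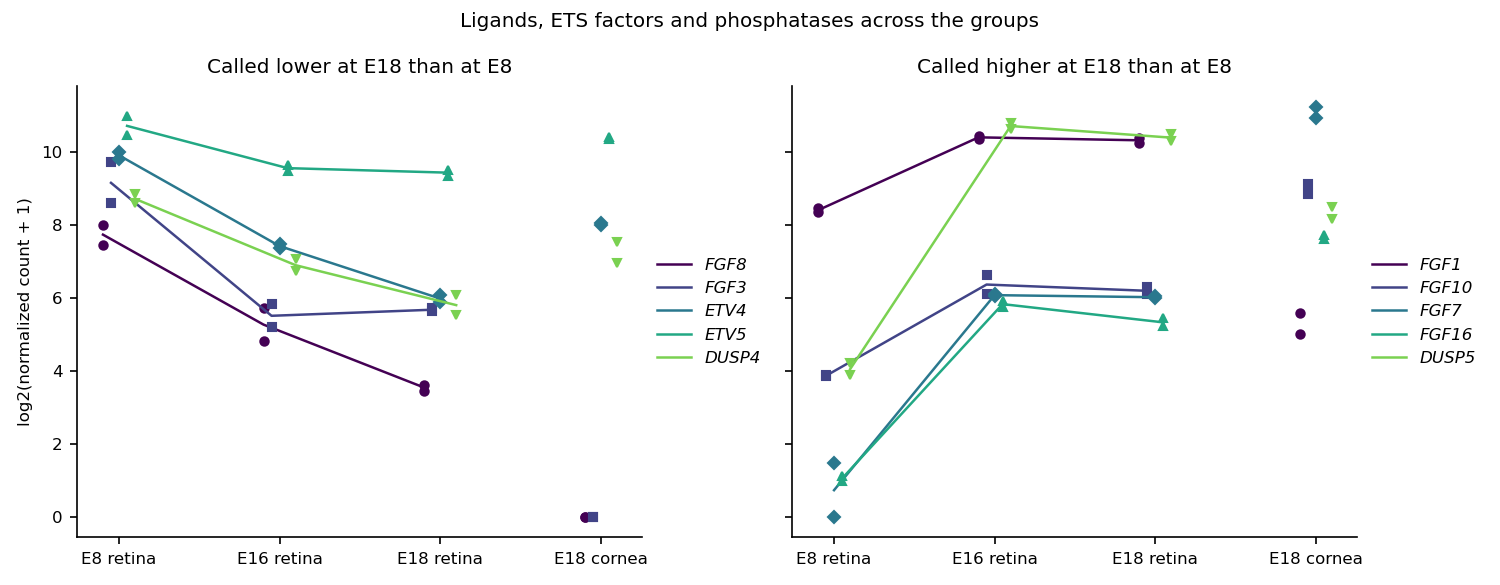
The vertical axis gives log2(normalized count + 1), points are single libraries, and lines join the means of E8, E16 and E18 retina. FGF8, FGF3, ETV4, ETV5 and DUSP4 start high at E8 and fall by E16, whereas FGF1, FGF10, FGF7, FGF16 and DUSP5 rise by E16 and change little to E18.

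Markers of precursor and dividing cells moved with the falling genes, and their part in those falls was not tested. The 8 genes with reads in a list of 10 summed to 123217 to 129958 normalized counts in the E8 libraries, 38367 to 39274 at E16 and 33659 to 36845 at E18. Of the 8, 7 were called lower at E16 than at E8, where 30.3% of all tested genes were called lower and 34.1% higher. Over the same interval 5 photoreceptor markers went from 2463 to 3652 summed normalized counts at E8 to 35346 to 43233 at E16, with PRPH2 and GNAT1 at no more than 3 reads in each E8 library, and 5 Müller glia markers from 48929 to 51237 at E8 to 144388 to 153161 at E16. Of the Müller glia markers 4 were called higher and 1 lower, since SOX9, which precursors also express, went from a mean of 4827 normalized counts to 559, and CA2 made up most of the sum. The E8 libraries also differed from each other in genes of early retina. ATOH7, a transcription factor of ganglion cell precursors, had 10560 normalized counts in E8 replicate 1 and 2483 in replicate 2, and in the same direction FGF3 differed 2.18-fold, FGF8 1.46-fold and FGF19 1.41-fold.

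Between the receptors and ERK the direction depended on the stages compared. Of 17 adaptor and cascade genes 16 were tested, and 12 were called lower and 1 higher at E16 than at E8 (limma), with a median log2 difference of -0.63 (0.04 over all tested genes, of which 30.3% were called lower and 34.1% higher). Between E8 and E18, 8 were called lower, 1 higher and 7 were not called, with a median of -0.40. Over all tested genes 31.4% were called lower and 35% higher in that comparison. From E8 to E16 the RAS exchange factors SOS2 (3.47-fold lower) and SOS1 (2.12-fold lower) and the receptor adaptor FRS2 (2.84-fold lower) changed most. Over the same interval the kinase gene MAP2K1 rose (limma log2 fold change 0.50). Between E16 and E18, 3 genes were called higher, among them BRAF, and HRAS was called lower (10.7% higher and 7.87% lower over all tested genes). The limma calls of BRAF (adjusted p up to 0.352) and HRAS (up to 0.0993) were lost without single libraries of these stages. Between cornea and E18 retina 6 were called higher and 5 lower, against 36.9% and 34.5% of all tested genes. This group thus had no common direction by tissue. Over all 48 tested genes of the 6 pathway lists, 75.0% were called from E8 to E16, against 64.4% of all tested genes. From E16 to E18 20.8% were called (18.6% of all genes), from E8 to E18 64.6% (66.4%), and by tissue at E18 72.9% (71.4%).

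The FGF carriers FGFBP1 and FGFBP2 gave the largest tissue differences among the tested pathway genes, while 4 of the 9 tested genes of their list, which also holds receptors and coreceptors, were not called between cornea and E18 retina (limma). Over all tested genes 71.4% were called between these tissues. FGFBP1, which releases FGFs bound to matrix, had 11989 and 9181 normalized counts in cornea and no reads in E18 retina, so that cornea was at least 2816-fold higher relative to 3 reads in the shallower retinal library. FGFBP2 of the same family had 167168 and 174787 in cornea and 76.4 and 97.7 in E18 retina, 1956-fold apart (SE 0.42 on the log2 scale, limma adjusted p = 9.86e-08). Anosmin-1 (ANOS1, row KAL1), a matrix protein that binds FGFR1, was 13.1-fold higher in E18 retina than in cornea and rose 3.87-fold in retina from E8 to E18. FLRT3, a membrane protein that binds FGF receptors, rose 4.18-fold from E8 to E16. At E16 6 of the 9 tested genes of this list were called higher than at E8, against 34.1% of all tested genes. FGFBP1 among the 6 had 3 and 2 reads at E16 and none at E8 and is within the limit of detection. KL, also among the 6, had 11 and 3 reads at E8 and 17 and 18 at E16. Its call was lost with DESeq2 (adjusted p = 0.0758), and that of FLRT2 was near the threshold (limma adjusted p = 0.0454).

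**Figure D4:**
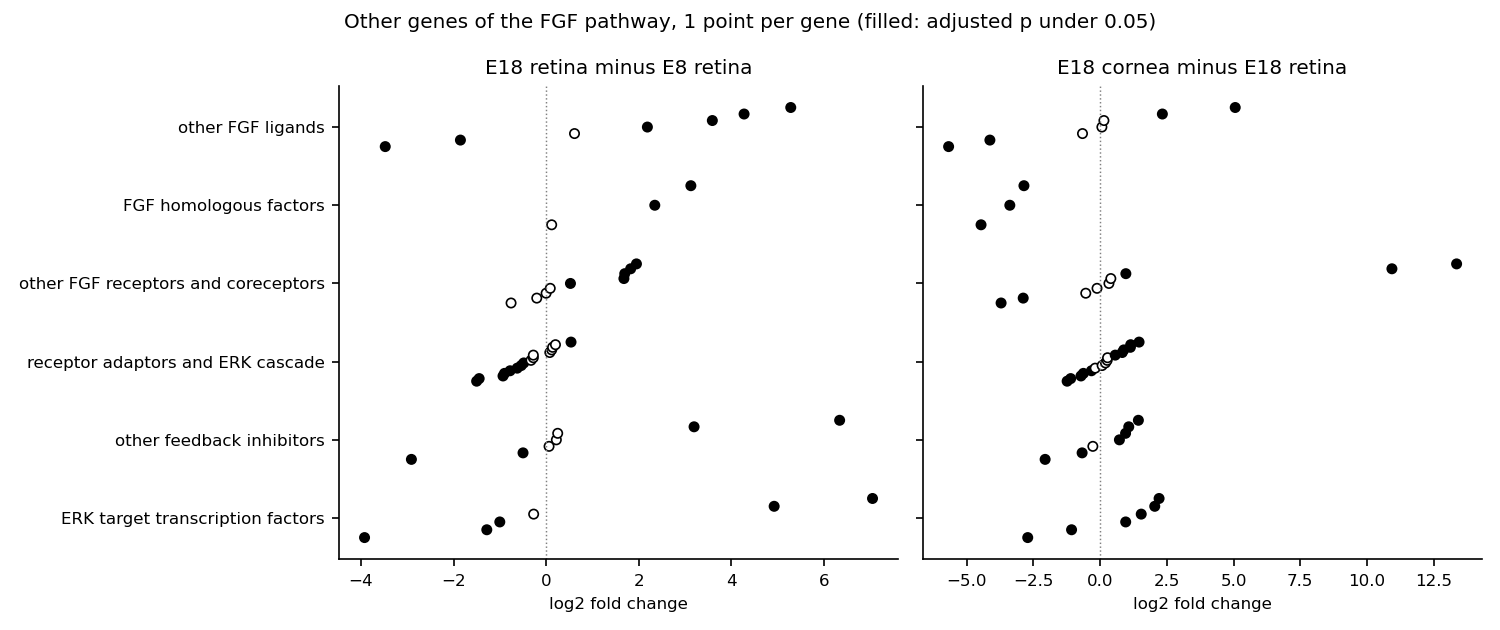
Each point is 1 tested gene of a pathway list, with its limma log2 fold change on the horizontal axis, and filled points have an adjusted p under 0.05. Adaptor and cascade genes lie between -1.50 and 0.54 on the left panel, where feedback inhibitors and ERK targets spread to both sides, and FGFBP1 and FGFBP2 lie farthest right in the cornea panel, FGFBP1 at a fitted value that depends on the pseudocount because E18 retina had no reads.

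The order of levels can be read across the 4 groups. Of the 27 pairs of neighbouring groups of the 9 members, 17 were called apart by limma. Of all tested genes, 64.4% were called between E8 and E16 retina, 18.6% between E16 and E18 and 66.4% between E8 and E18. Cornea gave 71.4% against E18 retina, 74.4% against E8 retina and 69.9% against E16 retina. The share of neighbouring steps called over all genes was not computed, so nothing is read from the count of 17. FGF8 alone was called at every step, in the order E18 cornea, E18 retina, E16 retina, E8 retina. For 6 of the members the cornea stood highest, and for FGF19, FGF8 and FGF1 it stood lowest. E16 and E18 retina were neighbours that were not called apart for FGF19, FGF1, FGF10, FGFR1, FGFR2, FGFR3, SPRY1 and SPRY2, and E8 and E16 retina were such neighbours for SPRY1 and SPRY2. The libraries of E16 and E18 retina did not overlap for FGFR1, FGFR2, FGFR3 and SPRY1, with limma adjusted p of 0.269 to 0.466. The share of all tested genes without such overlap is not given here. With 2 libraries in a group, nothing is read from it.

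Genes with the most similar pattern were sought by the Pearson correlation of log2(normalized count + 1) over the 8 libraries among 11847 genes with a symbol. Since the 8 libraries form 4 groups that differ in many genes, high values are common and are given as a description. SSX2IP (r = 0.999) and SYT7 (0.998), for a synaptotagmin, were closest to FGF19. DIXDC1 and ATOH7 (0.994 each) were closest to FGF8. For FGFR2 the closest were JAG2 (0.998), for a Notch ligand, and PTX3 (0.997), followed by LAMB1 (0.997), for a laminin chain. IL18R1 (0.998) was closest to FGF10.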

How the data were processed

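Polyadenylated RNA of 8 libraries (2 per group) was sequenced, and per the labels and the study's methods the authors aligned reads to galGal4 with STAR, counted them per gene with featureCounts of the Subread package and normalized with DESeq2. Libraries were stranded, and the strand setting of the counting is not given in the sources used here. The deposited values are a signal, namely counts divided by 1 size factor per library. Dividing by the smallest step of each library gave whole reads for 100% of values (tolerance 0.01), between 15662779 and 45670254 per library. Groups were taken from the labels and compared with limma 3.58.1 (R 4.3.3) on log2(normalized count + 1), with all 8 libraries in 1 fit, a trended prior and Benjamini-Hochberg adjustment over the 13194 genes that passed a minimum count of 10 in edgeR's filter. A gene was called at an adjusted p under 0.05.

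The alternatives were edgeR 4.0.16 and DESeq2 1.42.0 on the recovered reads, pseudocounts of 0.5 and 5, no filter, only the 4 libraries compared, a replicate block and leaving out each library. Scripts were tested on simulated data. Members were matched by symbol, and BFGF and 4 pathway genes by RefSeq synonym (GRCg7b, used for names and gene order only). Of 61 other pathway genes in 6 lists, 53 had a row and 48 were tested, and the remaining 8 were not analysed here. In each list and comparison the 3 called genes with the largest change were named; FGF4, FGFR4, FGFRL1, ETV1, ETV5, MAP2K1, NUDT6 and some further comparisons of named genes, such as the stage change of FGF3, were chosen after their values were seen. Members and lists were chosen with earlier results of these data known. Ratios with 1 to 3 reads in a group carry exact 95% counting intervals. Results of some genes are not reported here.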

Additional observations from a re-analysis of the deposited data

How the results depend on the processing

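Over the alternatives run, 442 of 479 values of the members and FGF2 had the same direction and call, 25 lost the call, 4 gained it and 8 reversed. Leaving out 1 library gave 4 to 6 called members between E16 and E8 retina (4 without E16 replicate 2), 0 to 0 between E18 and E16, 6 to 7 between E18 and E8, 9 to 9 between cornea and E18 retina, and 13 to 17 called steps in the order of levels. Over all genes, 2450 were called between E18 and E16 retina, 5638 with only the 4 libraries compared and far fewer on leaving out a library.

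The reversals were of differences that were not called. On leaving out a library, the log2 difference between E18 and E16 ran from -0.3642 to 0.0354 for FGF19 (without E16 replicates 2 and 1), from -0.4226 to 0.0802 for FGF10 (without E16 replicates 1 and 2) and from -0.0966 to 0.013 for SPRY2 (without E16 replicates 1 and 2). Between E16 and E8 it ran from -0.5848 to 0.0932 for SPRY1 (without E8 replicates 1 and 2) and from -0.1106 to 0.1108 for SPRY2 (without E8 replicates 1 and 2), with -0.0547 without E16 replicate 2 and -0.0199 with edgeR. Between E18 and E8 it ran from -0.1524 to 0.069 for SPRY2 (without E8 replicates 1 and 2). The cause was not tested.

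With the replicate number as a block, 7, 1, 7 and 9 members were called in the same 4 comparisons and 17 steps in the order of levels. Without the block, 64.4%, 18.6%, 66.4% and 71.4% of all tested genes were called in these comparisons. Replicate differences of same-numbered libraries correlated at -0.05 to 0.05 over 13194 genes, so the data gave no sign of pairing. The study's sample listings number the animals in different ways, so retina and cornea at E18 may come from the same embryos. With the block all 9 members were called between these tissues, where most tested genes were called without it (71.4%). The block ended the call of FGF2 between E18 and E16 (limma adjusted p = 0.0645) and of DUSP4 (0.0552). Depth limits the low genes, such as FGF8 at E18 with 8 and 15 reads.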

Other observations

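FGF homologous factors stay inside the cell and bind voltage-gated sodium channels. Of 3 tested, 2 rose between E8 and E18 in the retina and all 3 were lower in cornea than in E18 retina (limma). Among all tested genes, limma called a rise over that interval for 35% and a lower level in cornea for 34.5%. A list of 3 genes is too short to read a trait of the family from it. FGF14 had 48.0 and 68.6 normalized counts at E8 retina, 555 and 469 at E18 and 53.5 and 43.0 in cornea, and rose 8.75-fold from E8 to E18 (SE 0.26 on the log2 scale, limma adjusted p = 1.14e-05). FGF12 rose 5.10-fold over the same period (SE 0.27, limma adjusted p = 7.2e-05). FGF13 was 22.0-fold lower in cornea than in E18 retina (SE 0.18, limma adjusted p = 1.31e-07) and was not called between retinal stages, with a log2 difference of 0.12 between E18 and E8.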
